A study of Mus musculus with 2 samples.

Results

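Ptcra-positive thymocytes in cell cycle that had no detected Rag1 or Rag2 RNA and at least 1 UMI of a CD4 or CD8 coreceptor gene were described in 2 single-cell libraries of mouse thymus. A UMI, or unique molecular identifier, is 1 counted RNA molecule. Thymocytes of 1 wild type sample and of 1 sample homozygous for mutated GATA sites 1 and 2 of NMe were profiled with 3′ droplet RNA sequencing. NMe lies far from the proto-oncogene Myc and enhances its expression in T cell precursors, where NOTCH1 acts on it. GATA sites are short motifs read by factors such as GATA3. Below, the libraries are named wild type and mutant. The labels give no age, sex or strain, and no number of animals behind a library. Both libraries are whole thymocyte suspensions, so every cell type of the thymus could enter them.

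The cells were chosen by their counts. A barcode was kept if it had 400 or more detected genes and no more than 10% mitochondrial UMIs. A blast had at least 8 UMIs summed over the 9 cycle genes Mcm3, Mcm5, Mcm6, Hells, Ung, Ccne2, Clspn, Mki67 and Top2a. It also had at least 1 UMI of Ptcra, at least 1 UMI of Cd8a, Cd8b1 and Cd4 together, and 0 UMIs of Rag1 and Rag2. This left 34 of 1341 wild type cells and 52 of 1731 mutant cells, 86 of 3072 in all. They are called Rag-silent blasts below, and the 15 gate genes are described only as the choice. Comparisons used 3 neighbouring sets of cells. Rag-positive blasts passed every limit but had a Rag1 or Rag2 UMI (169 wild type and 46 mutant cells). Coreceptor-negative blasts passed every limit but had no coreceptor UMI (3 and 13 cells). Ptcra-positive cells out of cycle had at most 1 UMI of the cycle genes, no Rag UMI and a coreceptor UMI (18 and 54 cells).

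With 1 library per genotype no test between genotypes exists. Every value therefore compares these libraries and not the conditions, and the intervals printed with values, all at 95%, reflect counting error only. Cells of 1 library are not replicates. Ptcra encodes the invariant chain that pairs with a newly made T cell receptor beta chain to form the pre-T cell receptor. At beta-selection, signals from this receptor turn off the recombinase genes Rag1 and Rag2 and, together with NOTCH1, start a burst of divisions. During that burst the cells gain CD8 and then CD4, and they later leave the cycle and turn the recombinase on again to rearrange the alpha chain gene. MYC drives growth in the dividing cells, and it acts widely on genes of ribosome assembly.

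The wild type Rag-silent blasts held 285803 UMIs and the mutant ones 516727. Their median was 6167.5 UMIs per cell in wild type, with quartiles of 5036 and 9325.25, and 7676.5 in mutant, with quartiles of 5986.25 and 14024.5. Cytoplasmic ribosomal protein genes gave 29.3% of the UMIs in wild type and 22.4% in mutant. Mitochondrial genes gave 2.38% and 1.79%. No barcode of a Rag-silent blast occurred in the other library, and 1 barcode was shared among all cells. The doublet caller marked 0 wild type and 1 mutant Rag-silent blast. It called only 3 and 5 cells in the libraries, so doublets remain among the kept cells.

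Several limits of the gate lay close to the lowest possible count. Exactly 1 Ptcra UMI was found in 22 of the 34 wild type and 24 of the 52 mutant Rag-silent blasts. The cycle sum was 8 or 9 in 5 and 3 cells, and otherwise similar cells with a sum of 6 or 7 numbered 2 and 1. The median cycle sum was 15.5 UMIs in wild type and 19 in mutant. Just outside the recombinase limit, 41 of 169 wild type and 15 of 46 mutant Rag-positive blasts had exactly 1 Rag UMI, and the median of the Rag-positive blasts was 3 UMIs in both libraries. A cell with 0 Rag UMIs may therefore still have held some Rag RNA. Just inside the coreceptor limit, 1 wild type and 15 mutant cells had exactly 1 coreceptor UMI, with medians of 9 and 3.5 UMIs.

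Among Ptcra-positive blasts with a coreceptor UMI, Rag-silent cells made up 34 of 203 in wild type, 16.7% (exact Clopper-Pearson interval, 11.9 to 22.6%). In mutant they made up 52 of 98, 53.1% (42.7 to 63.2%). The counts of Rag-silent cells were of like size, while Rag-positive blasts made up 12.6% of kept wild type cells and 2.66% of kept mutant cells. As a share of all kept cells the Rag-silent blasts were 2.54% in wild type (1.76 to 3.53%) and 3.0% in mutant (2.25 to 3.92%). The gate was also set on cells thinned to 3000 UMIs each, with shallower cells left out (752 wild type and 725 mutant cells remained) and the cycle limit lowered from 8 to 4 UMIs. The Rag-silent share of blasts was then 39.8% in wild type, from 35 of 88 cells, and 67.4% in mutant, from 29 of 43. With the cycle limit kept at 8 it was 48.8%, from 21 of 43 cells, and 52.9%, from 9 of 17, and the intervals overlapped (33.3 to 64.5% and 27.8 to 77.0%). In the same cells without thinning it was 16% and 51.6%. The share of kept cells changed its order with the gate: it was 4.65% in wild type and 4% in mutant with the thinned gate, 2.79% and 1.24% with the cycle limit kept at 8, and 4.26% and 6.76% without thinning. Which library held more Rag-silent blasts among its cells was therefore not settled by these data.

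The coreceptor genes were part of the gate, and their levels are given as a description. Cd8a stood at 528 UMIs per 1000000 UMIs (CPM) in wild type and 267 CPM in mutant, and Cd8b1 at 612 and 308 CPM. Cd4 stood at 94.5 CPM in wild type, from 27 UMIs in 12 of 34 cells, and at 5.81 CPM in mutant, from 3 UMIs in 3 of 52 cells. Thus 22 wild type and 49 mutant Rag-silent blasts had CD8 RNA and no Cd4 UMI. Among Rag-positive blasts, 102 of 169 wild type and 17 of 46 mutant cells had a Cd4 UMI. Il2ra, the CD25 gene that marks the stage at which beta-selection takes place, had 1 UMI in 1 wild type cell and 8 UMIs in 4 mutant cells. Il2ra, which the gate did not use, was thus found in 5 of 86 cells, so the working name of beta-selection blasts rests on the gate genes alone.

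Genes of DNA replication and of mitosis other than the gate genes separated the blasts along a range. In wild type the median was 103 UMIs of replication genes per 10000 UMIs of a cell, with quartiles of 90.8 and 121, and 83.4 UMIs of mitosis genes, with quartiles of 43.2 and 136. In mutant the medians were 97.0 for replication genes, with quartiles of 73.3 and 122, and 121 for mitosis genes, with quartiles of 42.7 and 179. The highest mitosis value was 231 in wild type and 437 in mutant. Mitosis UMIs outnumbered replication UMIs in 13 of 34 wild type and 27 of 52 mutant cells. Wild type cells with a Cd4 UMI lay on both sides of equal values, but most of them had more mitosis than replication UMIs. Most wild type cells without a Cd4 UMI had fewer mitosis than replication UMIs, and this difference was not tested.

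**Figure D1:**
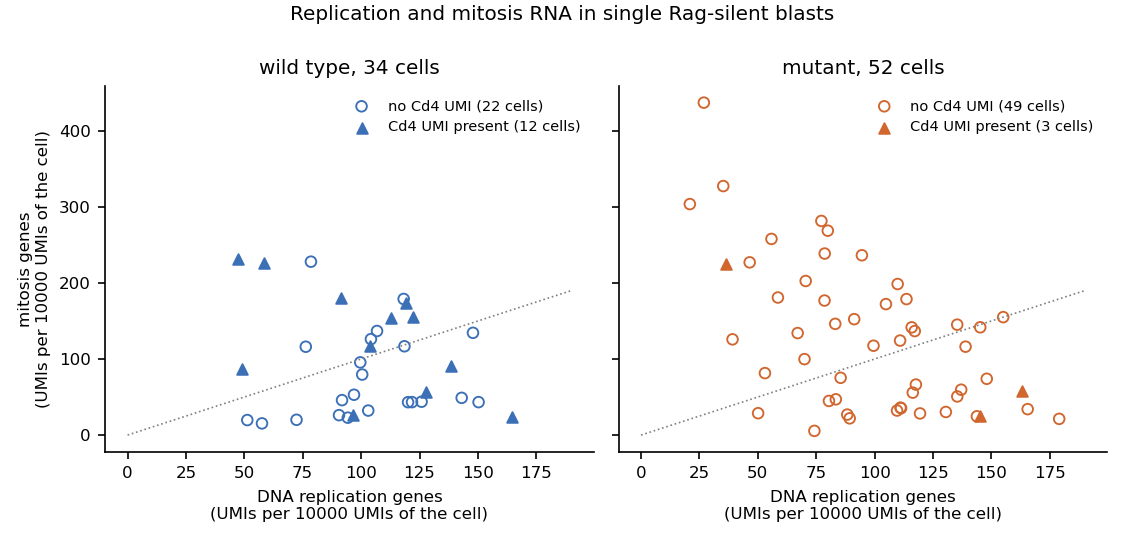
Each point is 1 Rag-silent blast; the horizontal axis gives UMIs of DNA replication genes and the vertical axis UMIs of mitosis genes, both without the gate genes and per 10000 UMIs of the cell, and the dotted line marks equal values. Triangles mark the 12 wild type and 3 mutant cells with a Cd4 UMI, and 13 of 34 wild type and 27 of 52 mutant cells lie above the line.

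Ptcra-positive cells out of cycle were the plainest contrast, and the gate itself set it, so its values describe the blasts and are no finding about them. Over 2179 genes tested, 363 (16.7%) were at least 2-fold higher in the blasts in both libraries, and 81 (3.72%) were at least 2-fold lower in both. Genes tested in this way had at least 50 CPM in 1 of the sets compared and at least 20 UMIs in both sets together, in each library, and 5 CPM was added to both sides for such calls and for list medians. Without a fold limit, 52.5% of the genes tested were higher in both libraries and 25.5% lower in both. Replication genes outside the gate were higher in both in 33 of 33 cases, mitosis genes in 36 of 36 and replication-dependent histone genes in 7 of 7. The median log2 ratio over all genes tested was 0.35 in wild type and 0.29 in mutant. The out-of-cycle cells were small, with medians of 2509 and 2565.5 UMIs.

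The genes furthest above the out-of-cycle cells in both libraries were Nusap1, Hist1h2ap, Cdk1, Fbxo5, Cdca3 and Ccnb2. Cdk1, the kinase that drives entry into mitosis, stood at 339 CPM in wild type blasts and 358 CPM in mutant blasts. It had 0 UMIs in both out-of-cycle sets, so it was at least 6.18-fold higher in wild type and at least 20.2-fold higher in mutant, against a floor of 3 UMIs per set. Ccnb2, a B-type cyclin that activates CDK1, stood at 227 and 393 CPM against 0 UMIs, at least 4.14-fold and 22.1-fold higher. Cdca3, which helps to trigger mitotic entry, stood at 294 and 375 CPM, at least 5.35-fold and 21.2-fold higher. Fbxo5, an inhibitor of the anaphase-promoting complex, stood at 329 and 314 CPM, and Nusap1, a spindle protein, at 378 and 418 CPM, both against 0 UMIs. The histone gene Hist1h2ap reached 17673 CPM in wild type and 12192 CPM in mutant blasts, against 238 and 130 CPM out of cycle. Reads of near-identical histone copies may have been shared among them in the counting, so single histone values are uncertain.

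The promoters of 3 of these genes are shown because genes of this kind are known to share 2 promoter elements, the CCAAT box and the cell cycle homology region (CHR). The sequences run 5′ to 3′ from 250 bases before to 50 bases after the start of the gene, from RefSeq on GRCm38.p6. Capitals mark CCAAT, the CHR letters TTTGAA, or the E2F-type letters TTCCCGC and TTGGCGC, on either strand.
Cdk1 (chr10:69352863-69353162, minus strand): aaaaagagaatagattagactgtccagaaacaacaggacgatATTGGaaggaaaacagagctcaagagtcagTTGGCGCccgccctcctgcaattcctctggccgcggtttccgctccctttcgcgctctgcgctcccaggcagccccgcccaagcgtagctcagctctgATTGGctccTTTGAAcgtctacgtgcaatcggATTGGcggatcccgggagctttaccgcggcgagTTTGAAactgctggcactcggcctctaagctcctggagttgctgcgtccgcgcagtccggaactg
Ccnb2 (chr9:70421505-70421804, minus strand): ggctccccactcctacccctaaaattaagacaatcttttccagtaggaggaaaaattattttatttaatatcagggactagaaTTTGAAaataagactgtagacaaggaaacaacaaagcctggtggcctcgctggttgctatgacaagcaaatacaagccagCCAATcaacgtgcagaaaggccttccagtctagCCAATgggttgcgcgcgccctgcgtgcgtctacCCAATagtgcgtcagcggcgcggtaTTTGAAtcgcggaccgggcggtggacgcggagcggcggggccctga
Cdca3 (chr6:124829926-124830225, plus strand): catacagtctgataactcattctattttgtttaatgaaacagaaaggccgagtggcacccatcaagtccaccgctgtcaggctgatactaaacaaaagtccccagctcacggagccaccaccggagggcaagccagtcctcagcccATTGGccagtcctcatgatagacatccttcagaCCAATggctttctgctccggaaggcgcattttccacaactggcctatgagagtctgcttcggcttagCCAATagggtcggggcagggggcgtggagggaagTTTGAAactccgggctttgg
The Cdk1 promoter held 3 CCAAT, 2 CHR and 1 E2F-type match, the Ccnb2 promoter 3 CCAAT and 2 CHR matches, and the Cdca3 promoter 3 CCAAT and 1 CHR match. None of the matches shown overlapped another. Of the 363 higher genes, 285 had a promoter in the table, and 29.1% of these held an E2F-type match. The share was 6.45% of 62 lower genes, 15.6% of 1677 genes tested and 6.93% of all 27025 promoters. CHR letters occurred in 23.9% of the higher genes, 12.9% of the lower genes, 13.2% of genes tested and 18.1% of all promoters. CCAAT occurred in 54.4%, 41.9%, 42.2% and 37.9%. A match describes letters and not a bound site.

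Genes lower in the blasts than in out-of-cycle cells of both libraries were led by Ccnd2, Cd53, Igfbp4, Ypel3, Shisa5 and Btg1. Ccnd2, which encodes cyclin D2, stood at 10.5 CPM in wild type and 9.68 CPM in mutant blasts, against 330 and 278 CPM out of cycle. The log2 ratio was -4.97 in wild type (-7.38 to -3.20) and -4.84 in mutant (-6.53 to -3.52). Ccnd3, the cyclin D gene that pre-T cell receptor signals act through, went the other way, at 1333 and 1720 CPM against 330 and 1082 CPM. Btg1, an antiproliferative gene, stood at 231 and 288 CPM against 1557 and 1402 CPM. Bcl2, a survival gene that is low in CD4 CD8 double-positive thymocytes, stood at 38.5 and 118 CPM against 238 and 349 CPM. Genes of receptor signalling were lower in both libraries in 8 of 11 cases and higher in both in 0. Cd3d, a CD3 chain of the receptor, had log2 ratios of -1.0 in wild type and -1.63 in mutant, and Cd3g of -1.0 and -1.08.

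Growth genes lay above the out-of-cycle cells as well. Of 24 tested genes of ribosome biogenesis and growth that MYC is known to activate, 21 were higher in the blasts in both libraries and 0 were lower in both, with medians of 1.09 in wild type and 1.44 in mutant. Npm1, a nucleolar chaperone of ribosome assembly, stood at 2050 and 1579 CPM in the blasts against 1008 and 982 CPM. Ribosomal protein genes themselves were lower in both libraries in 56 of 76 cases, with medians of -0.18 and -0.32. Nuclear-encoded genes of the respiratory chain were higher in both in 35 of 38 cases.

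**Figure D2:**
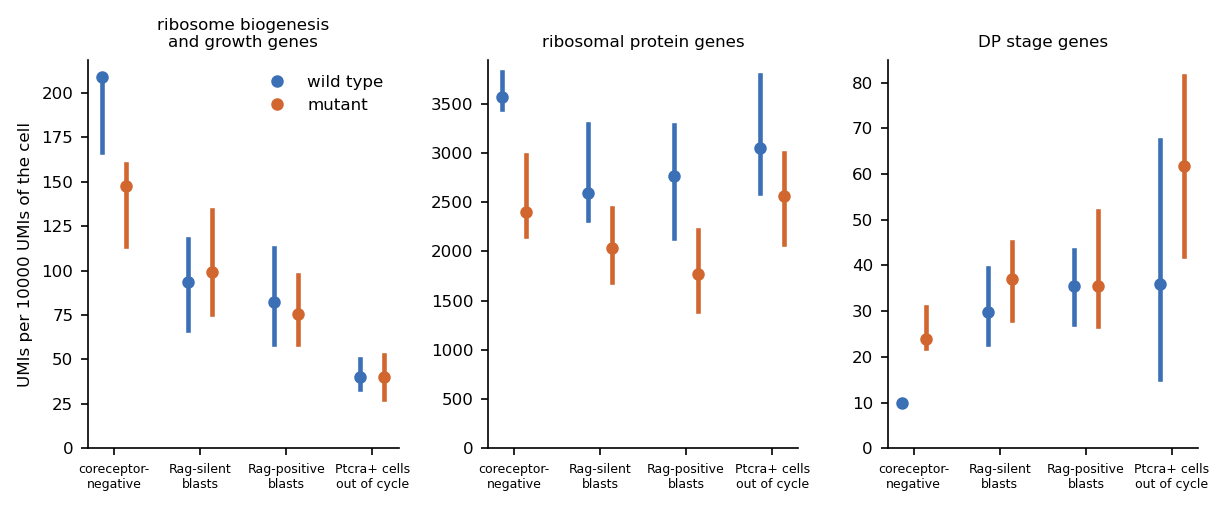
UMIs per 10000 UMIs of a cell for 3 gene lists in 4 sets of Ptcra-positive cells of each library; points are medians over cells and bars run from the lower to the upper quartile. The biogenesis list is highest in coreceptor-negative blasts, whose wild type set holds 3 cells, and lowest in cells out of cycle, where both medians are near 40.

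Rag-positive blasts were the nearest set, and no gene separated them from Rag-silent blasts by 2-fold in both libraries. They held more UMIs per cell, with medians of 8501 in wild type and 8384.5 in mutant, beside 6167.5 and 7676.5 in Rag-silent blasts. The part of depth in the list differences below was not tested. Of 2576 genes tested, 0 were at least 2-fold higher in both (0%) and 0 at least 2-fold lower in both (0%). Within wild type alone 3 genes (0.116%) were 2-fold higher and 22 (0.854%) lower, and within mutant alone 21 (0.815%) were higher and 7 (0.272%) lower. Smaller differences ran the same way over some lists. Without a fold limit, 28.3% of the genes tested were higher in both libraries and 26.9% lower in both. Mitosis genes were lower in Rag-silent than in Rag-positive blasts of both libraries in 35 of 45 cases, with medians of -0.24 in wild type and -0.46 in mutant. Replication genes were higher in both in 25 of 38 cases and lower in both in 0, with medians of 0.31 and 0.21. Ribosome biogenesis and growth genes were higher in both in 17 of 29 cases, with medians of 0.08 and 0.45. Mitosis UMIs outnumbered replication UMIs in 98 of 169 wild type and 33 of 46 mutant Rag-positive blasts, beside the 13 of 34 and 27 of 52 Rag-silent blasts. Macrophage markers summed to 459 CPM in mutant Rag-positive blasts, to 19.4 CPM in mutant Rag-silent blasts and to 43.4 and 14.0 CPM in wild type. Markers of B and antigen-presenting cells summed to 249 CPM in mutant Rag-positive and 73.5 CPM in mutant Rag-silent blasts, and to 42.8 and 28 CPM in wild type. The part of both lists in the mutant differences was not tested.

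The genes furthest apart from Rag-positive blasts were named by the smaller of their differences in the libraries. Gins2, a subunit of the GINS complex of the replication fork, stood at 143 CPM in wild type and 116 CPM in mutant Rag-silent blasts, against 85.6 and 58.8 CPM in Rag-positive blasts. Cd2, an adhesion molecule of T cells, stood at 66.5 and 130 CPM against 39.4 and 67.8 CPM. Rars, the arginyl-tRNA synthetase gene, stood at 70.0 and 56.1 CPM against 27.0 and 29.4 CPM, and its log2 ratios were 1.37 (0.54 to 2.15) and 0.93 (-0.06 to 2.00). Chd8, Gps1, Sp110, Sgf29 and Rbmx2 completed the higher group. On the lower side, Hmmr, a spindle-associated protein gene, stood at 42.0 and 96.8 CPM against 94.6 and 156 CPM. Tuba1c, an alpha-tubulin gene, stood at 84.0 and 215 CPM against 165 and 366 CPM, and its log2 ratios were -0.97 (-1.64 to -0.37) and -0.77 (-1.13 to -0.41). Fzr1, an activator of the anaphase-promoting complex at the end of mitosis, stood at 59.5 and 79.3 CPM against 109 and 154 CPM. Socs1, a feedback inhibitor of cytokine receptors, stood at 45.5 and 34.8 CPM against 81.7 and 58.8 CPM, and its mutant interval reached above 0. Fam64a, Pxmp4, Rmnd5a and Msi2 completed the lower group.

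Coreceptor-negative blasts numbered only 3 in wild type, with 30378 UMIs, and 13 in mutant, with 108186 UMIs, so single genes were poorly measured there. Of 2039 genes tested, 51 (2.5%) were at least 2-fold higher in Rag-silent blasts in both libraries and 3 (0.147%) at least 2-fold lower. Without a fold limit, 37.2% were higher in both and 22.7% lower in both. Ribosome biogenesis and growth genes were lower in both libraries in 21 of 24 cases, with medians of -0.76 in wild type and -0.39 in mutant. Lyar, a nucleolar growth gene, stood at 168 and 213 CPM in Rag-silent blasts and at 658 and 425 CPM without coreceptor RNA. Ribosomal protein genes were lower in both in 69 of 76 cases, with medians of -0.36 and -0.18. Genes of the double-positive stage were higher in both in 9 of 9 cases, with medians of 1.83 and 0.72. The sets were split by coreceptor RNA, which cells gain towards that stage, so the gate itself favours this direction. Tubulin genes were higher in both in 8 of 9 cases, and Tubb4b, a beta-tubulin gene, had log2 ratios of 1.83 (0.44 to 3.73) and 1.87 (1.25 to 2.56). Plac8, Ikzf2, Zfp280d, Epn1 and Rpgrip1 were the other genes furthest below, and Fam173a, Tuba1a, Nudt1 and Rbm22 were among those furthest above. The median biogenesis content was 209 UMIs per 10000 in the 3 wild type coreceptor-negative blasts and 147 in the 13 mutant ones. It was 93.6 and 99.3 in Rag-silent blasts, 82.4 and 75.4 in Rag-positive blasts, and 40.0 and 40.3 out of cycle.

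Between the libraries, 192 of 3048 genes tested (6.3%) were at least 2-fold higher in mutant Rag-silent blasts and 35 (1.15%) at least 2-fold lower. A gene could be tested through the library where it was high, and since the mutant set held more UMIs, a gene found mainly in mutant reached 20 UMIs at a lower CPM than a gene found mainly in wild type. With a limit of 50 CPM on the mean of both libraries, which treats them alike, 103 genes were higher and 16 lower. The median log2 ratio over all genes tested was 0.21, and 67.6% were above 0. With totals that held no ribosomal protein and no mitochondrial UMIs, 215 genes were higher and 102 lower, and the median was 0.04. Values of single genes are given on the deposited totals, and list medians beside that shift of 0.21.

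Myc (chr15:61985391-61990374, mm10), the gene that NMe acts on, was too scarce in these cells to compare. It had 10 UMIs in 7 of 34 wild type cells, 35.0 CPM (16.8 to 64.3), and 12 UMIs in 8 of 52 mutant cells, 23.2 CPM (12 to 40.6). The log2 ratio, mutant over wild type, was -0.59 (-1.93 to 0.78), so no difference was detectable at this depth. When the cells were thinned to 3000 UMIs it was 0.97 (-2.67 to 6.68). In Rag-positive blasts Myc stood at 54.6 CPM from 97 UMIs in wild type and at 20.4 CPM from 9 UMIs in mutant, and the log2 ratio was -1.42 (-2.60 to -0.44). In cells with fewer than 8 cycle UMIs it stood at 33.3 and 24.3 CPM.

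Of MYC-activated genes of ribosome biogenesis and growth, 21 of 33 were higher in mutant Rag-silent blasts, a share near the 67.6% of all genes. Of these MYC-activated genes 12 were lower, and 0 passed 2-fold. Their median of 0.12 lay 0.09 below that of all genes, and it was -0.07 and -0.03 under the other scalings of the totals. Npm1 had a log2 ratio of -0.38 (-0.53 to -0.22). Ribosomal protein genes were lower in 76 of 76 cases, with a median of -0.39, and 0 passed 2-fold. Among them Rpl8 had a log2 ratio of -0.12 (-0.24 to -0.01). The ribosomal protein median was also below 0 in Rag-positive blasts, at -0.54. Max, which encodes the partner of MYC, stood at 70.0 CPM in wild type and 89.0 CPM in mutant, with a log2 ratio of 0.35 (-0.44 to 1.18).

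Notch1 and its target Dtx1 were higher in the mutant blasts. Of 11 listed genes of the NOTCH pathway only 3 had enough RNA to be tested. Notch1 (chr2:26457903-26516663), the receptor gene, stood at 63.0 CPM in wild type and 211 CPM in mutant, with a log2 ratio of 1.74 (1.02 to 2.55). In wild type 1 cell gave 27.8% of its 18 UMIs. Dtx1, a NOTCH target that encodes the ubiquitin ligase Deltex1, stood at 10.5 CPM from 3 UMIs and 79.3 CPM from 41 UMIs, with a log2 ratio of 2.92 (1.27 to 5.25), and was tested through its mutant level only. Hes1, a target that encodes a repressor, stood at 52.5 and 77.4 CPM, with a log2 ratio of 0.56 (-0.33 to 1.52). It was -1.02 among blasts with at least 3 coreceptor UMIs, so the Hes1 direction depended on the gate. In Rag-positive blasts the log2 ratio of Notch1 was 1.51 (1.11 to 1.90) and that of Dtx1 5.08 (3.74 to 6.77). In cells below 8 cycle UMIs they were 0.98 and 2.02.

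**Figure D3:**
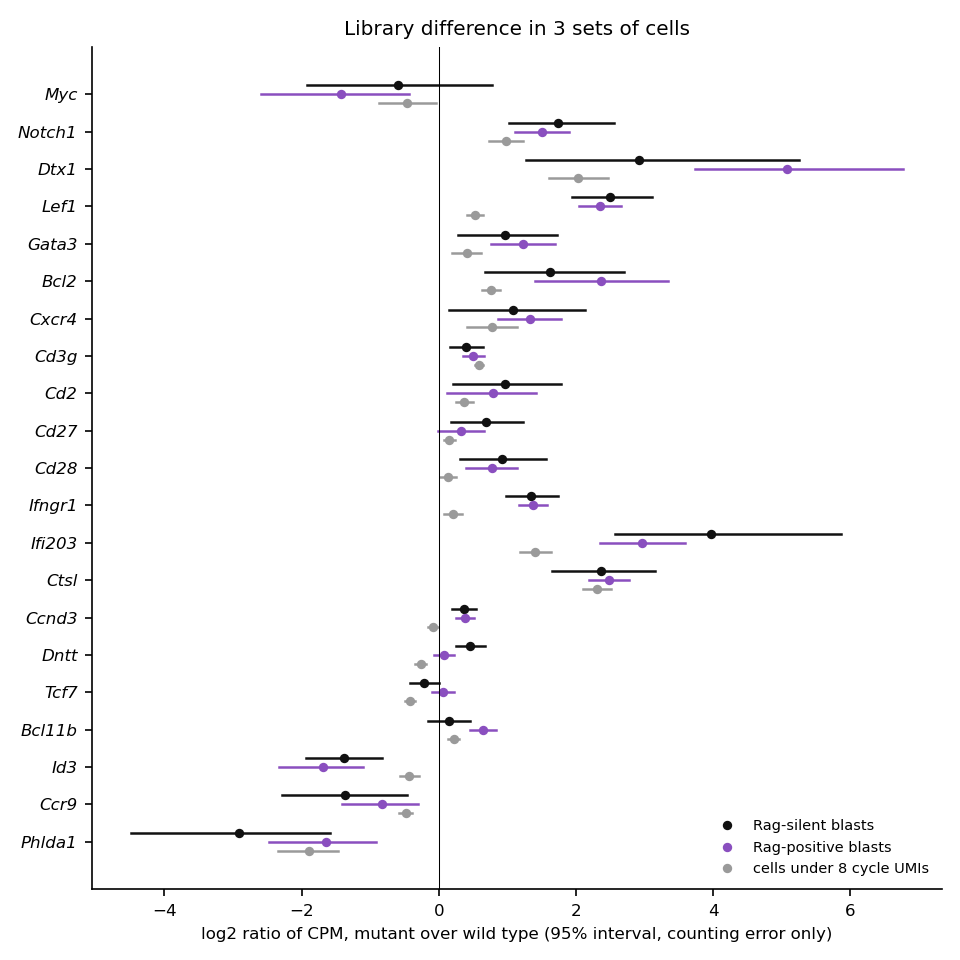
Log2 ratios of CPM, mutant over wild type, of 21 genes (points) with 95% intervals that cover counting error only (lines), in Rag-silent blasts, Rag-positive blasts and cells under 8 cycle UMIs. Notch1, Dtx1, Lef1 and Ctsl lie right of 0 in all 3 sets, Id3, Ccr9 and Phlda1 lie left of it, and the Myc interval of Rag-silent blasts spans 0.

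Among transcription factors of the T lineage, Lef1 lay furthest higher and Ikzf3 furthest lower in mutant. Of 18 tested, 12 were higher and 6 lower, a share near the 67.6% of all genes, with a median of 0.41. Lef1 (chr3:131110471-131224356), a factor that acts with WNT and NOTCH signals in early thymocytes, stood at 98.0 CPM in wild type and 553 CPM in mutant. The log2 ratio was 2.50 (1.94 to 3.11), and 1 wild type cell gave 28.6% of the 28 UMIs there. With each cell thinned to 3000 UMIs, 8 of 32 wild type and 38 of 49 mutant cells kept a Lef1 UMI. Gata3, which encodes a factor that reads GATA motifs, stood at 77.0 and 151 CPM, with a log2 ratio of 0.97 (0.27 to 1.73). Tcf7, the TCF1 gene, and Bcl11b, a gene of T cell commitment, differed less, with log2 ratios of -0.21 (-0.42 to 0.00) and 0.15 (-0.16 to 0.46). Id3, a gene induced by receptor signals, stood at 241 and 92.9 CPM, with a log2 ratio of -1.38 (-1.94 to -0.83), although 1 mutant cell gave 33.3% of the 48 UMIs. Without the blasts that held more mitosis than replication UMIs it was -0.48. Ikzf3, which encodes the factor Aiolos, stood at 56.0 CPM from 16 UMIs and 11.6 CPM from 6 UMIs, with a log2 ratio of -2.27 (-3.91 to -0.84), and of -0.66 when the gate was set on thinned cells.

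**Figure D4:**
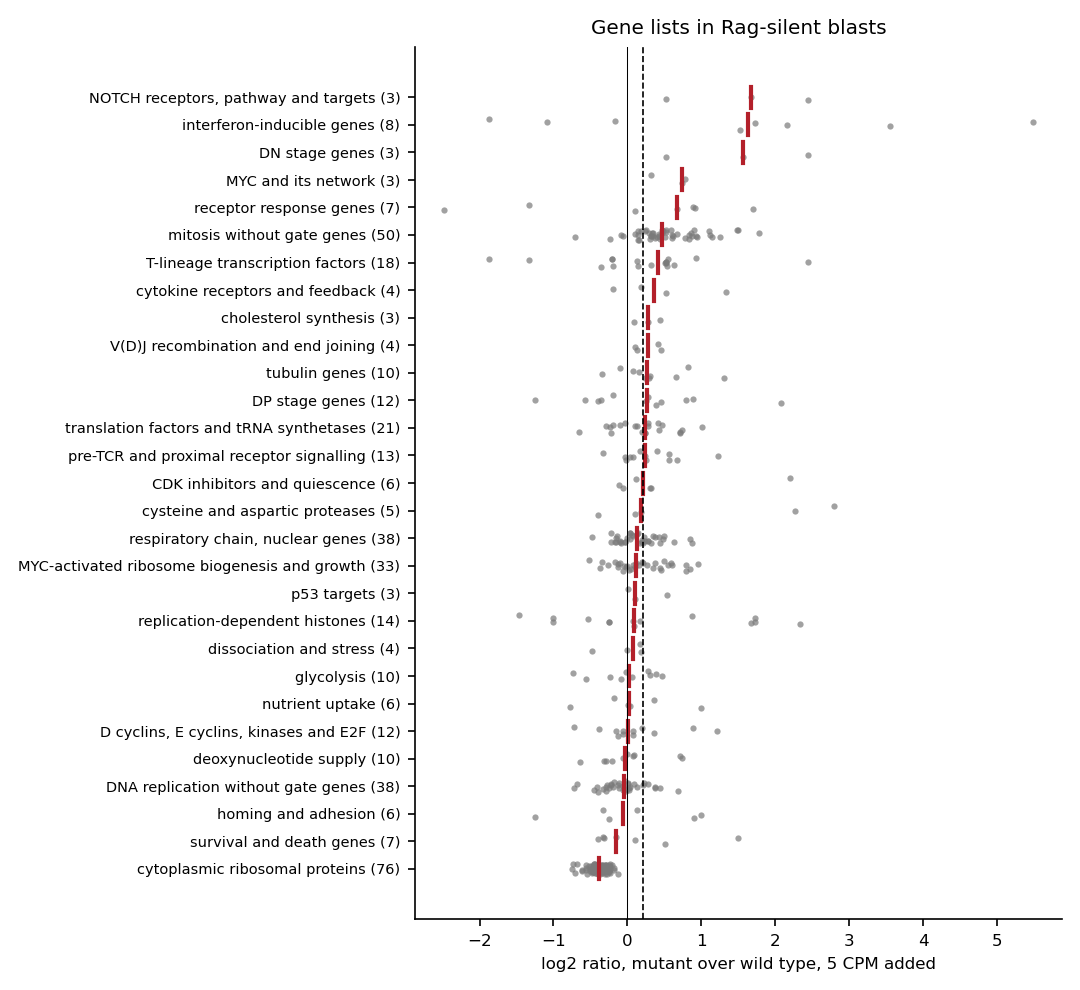
Each point is a tested gene of a list in Rag-silent blasts, with its log2 ratio, mutant over wild type, after 5 CPM was added to both libraries; red bars are list medians and numbers in parentheses count tested genes. The dashed line marks the median of 0.21 over all genes tested, and 76 of 76 ribosomal protein genes lie below 0.

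As a list, receptor genes of the pre-T cell receptor differed little from all genes. With 5 CPM added, log2 ratios of the CD3 chain genes ran from -0.33 for Cd247 to 0.56 for Cd3e. Of 13 tested genes of the receptor and its proximal signalling, 10 were higher in mutant, beside 67.6% of all genes, and 1 passed 2-fold, with a median of 0.24. Cd3g stood at 707 and 931 CPM, with a log2 ratio of 0.40 (0.16 to 0.64), and Cd3d at 616 and 608 CPM. Vav1, an exchange factor of receptor signalling, was the gene past 2-fold, at 24.5 and 63.9 CPM, and its log2 ratio of 1.38 was 0.91 as a mean over cells. Of the 7 tested genes that respond to receptor signals, 5 were higher and 2 lower, a share near that of all genes. Past 2-fold were 1 higher and 2 lower, beside 6.3% and 1.15% of all genes. Itm2a was the higher one, with a log2 ratio of 1.92 that fell below 1 under 1 of 16 alternatives. Id3 and Phlda1 were the lower ones. Cd27 stood at 150 and 242 CPM and Cd28 at 101 and 192 CPM, log2 ratios of 0.69 (0.17 to 1.22) and 0.92 (0.31 to 1.57). Both encode costimulatory receptors. Phlda1, a gene induced by receptor signals, stood at 87.5 CPM from 25 UMIs and 11.6 CPM from 6 UMIs, with a log2 ratio of -2.91 (-4.49 to -1.59).

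The 12 tested genes of the double-positive stage had a median of 0.27, with 7 higher and 5 lower, where 67.6% of all genes were higher. From that list, Ccr9, a chemokine receptor of later thymocytes, stood at 94.5 and 36.8 CPM, with a log2 ratio of -1.36 (-2.29 to -0.46). It was -0.50 among blasts with at least 3 coreceptor UMIs. Dntt, the terminal transferase gene that adds bases at recombined joints, stood at 892 and 1227 CPM, with a log2 ratio of 0.46 (0.25 to 0.67). Genes of other lists are given for their single values. Ifngr1, which encodes a chain of the interferon gamma receptor, stood at 248 and 633 CPM, with a log2 ratio of 1.35 (0.97 to 1.74), and of 0.52 when the gate was set on thinned cells. Cxcr4, a chemokine receptor that acts with the pre-T cell receptor at beta-selection, stood at 42.0 and 89.0 CPM, with a log2 ratio of 1.08 (0.14 to 2.14), and of 0.50 with at least 2 Ptcra UMIs. Bcl2 stood at 38.5 and 118 CPM, with a log2 ratio of 1.62 (0.68 to 2.69). It was the only gene past 2-fold among 7 tested survival and death genes. Of these, 3 were higher and 4 lower, with a median of -0.16. Bcl2l1, also on that list, had a log2 ratio of -0.42, and its interval held 0. The transferrin receptor gene Tfrc had 4 and 9 UMIs, and the glucose transporter gene Slc2a1 had 3 and 1 UMIs, too few to compare.

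Cycle genes differed between the libraries on the mitosis side with the main gate, but the size depended on the gate. Mitosis genes outside the gate were higher in mutant in 46 of 50 cases, beside 67.6% of all genes. Their median was 0.47, beside 0.21 for all genes, and 7 passed 2-fold, where 6.3% of all genes were 2-fold higher. Replication genes were higher in 15 of 38 cases, with a median of -0.04, and 0 passed 2-fold. Ccnb1, a B-type cyclin gene, stood at 122 and 354 CPM, with a log2 ratio of 1.53 (1.00 to 2.10), and of 0.65 when the gate was set on thinned cells. Ccnb2 had a log2 ratio of 0.79 (0.38 to 1.21), but of -0.26 (-0.72 to 0.19) under that gate. The mitosis median was 0.05 under that gate, and 0.09 when blasts with more mitosis than replication UMIs were left out of both libraries. Tuba1c had a log2 ratio of 1.36 (0.71 to 2.06), and of -1.30 (-7.18 to 2.96) without those blasts. Ccnd3 and Cdk6, which encode a D-type cyclin and its kinase partner, had log2 ratios of 0.37 (0.19 to 0.54) and 1.25 (0.63 to 1.93), and Cdk6 was at 0.70 among blasts with at least 3 coreceptor UMIs.

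Growth and metabolism lists had medians from -0.24 to 0.03 relative to that of all genes, with deoxynucleotide supply the lowest and translation factors the highest of the 5 lists described here. The 10 tested glycolysis genes had a median of 0.02, and 0 passed 2-fold. Of them 5 were higher and 5 lower, where 67.6% of all genes were higher. Aldoa, the aldolase gene, had a log2 ratio of -0.78 (-1.47 to -0.08), and Ldhb, a lactate dehydrogenase gene, of 0.48 (0.06 to 0.90). Of 38 nuclear genes of the respiratory chain, 25 were higher, a share near that of all genes, with a median of 0.13. Genes of deoxynucleotide supply were higher in 4 of 10 cases, with a median of -0.04. Rrm1, a subunit gene of ribonucleotide reductase, had a log2 ratio of 0.75 (0.26 to 1.26). Of 6 tested nutrient transporter genes, 4 were higher, a share near that of all genes. Slc3a2, which encodes the heavy chain of an amino acid transporter, stood at 31.5 and 67.7 CPM, and Slc38a2, a glutamine transporter gene, at 196 and 112 CPM. Eef1b2, a translation elongation factor gene, stood at 1270 and 807 CPM, while the 21 tested translation factor and tRNA synthetase genes had a median of 0.24. Of 14 tested histone genes, 8 were higher and 6 lower, where 67.6% of all genes were higher. Past 2-fold were 4 higher and 3 lower, beside 6.3% and 1.15% of all genes. Summed RNA over all listed histone genes was lower in mutant, at 19374 CPM in wild type and 14040 CPM in mutant. Most of it came from Hist1h2ap, at 17673 and 12192 CPM. The list split by gene, with Hist1h2bk at 10.5 and 73.5 CPM and Hist1h4i at 94.5 and 31.0 CPM.

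By size alone, the genes furthest higher in mutant Rag-silent blasts were led by Ifi202b and Cd200. Ifi202b (chr1:173962568-173982744), an interferon-inducible gene, had 0 UMIs in wild type and 113 UMIs in 31 of 52 mutant cells, 219 CPM. That is at least 20.8-fold higher against a floor of 3 UMIs in the wild type cells. Ifi203, its neighbour at chr1:173920407-173942672, stood at 14.0 CPM from 4 UMIs and 219 CPM from 113 UMIs, with a log2 ratio of 3.97 (2.57 to 5.87). These genes belong to a family of similar copies, so reads may have been assigned between members. Of 8 tested interferon-inducible genes, 5 were higher and 3 lower, where 67.6% of all genes were higher. Their median was 1.63, and its interval held 0. Ifi202b, Ifi203 and Ifi27 were tested through their mutant level only. Epsti1, among the lower ones at 63.0 and 13.5 CPM, was tested through its wild type level only. The median therefore depends in part on which genes passed the limit for testing. Ifi27 stood at 45.5 and 221 CPM. Ifi202b was also at 1 UMI among 169 wild type Rag-positive blasts, and at 145 CPM in the mutant ones.

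Cd200, which encodes a surface ligand of an inhibitory receptor, had 0 UMIs in wild type and 28 UMIs in 16 mutant cells, at least 5.16-fold higher. Ctsl, the cathepsin L gene, stood at 63.0 CPM in wild type and 323 CPM in mutant, with a log2 ratio of 2.36 (1.65 to 3.15). It was 2.48 in Rag-positive blasts and 2.31 in cells below 8 cycle UMIs. Ctse, another cathepsin gene, had 1 and 28 UMIs. Fam169b stood at 28 and 174 CPM and Ccdc18 at 24.5 and 132 CPM. Sept9, Dtx1, Snai3 and Hist1h2bk each had at most 3 UMIs in wild type and between 29 and 43 UMIs in mutant. The 12 genes furthest lower were Phlda1, Ikzf3, Epsti1, Ltb, Tbrg4, Nsg2, Dhrs3, Lztfl1, Hist1h4i, Smg1, Lsp1 and Mpp6. Ltb, which encodes lymphotoxin beta, stood at 101 and 27.1 CPM, with a log2 ratio of -1.91 (-2.94 to -0.94). Lsp1, which encodes an actin-binding protein of leukocytes, stood at 157 and 58.1 CPM, a log2 ratio of -1.44 that was -0.66 when the gate was set on thinned cells. Lztfl1 had a log2 ratio of -1.76, and of 0.02 under that gate.

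**Figure D5:**
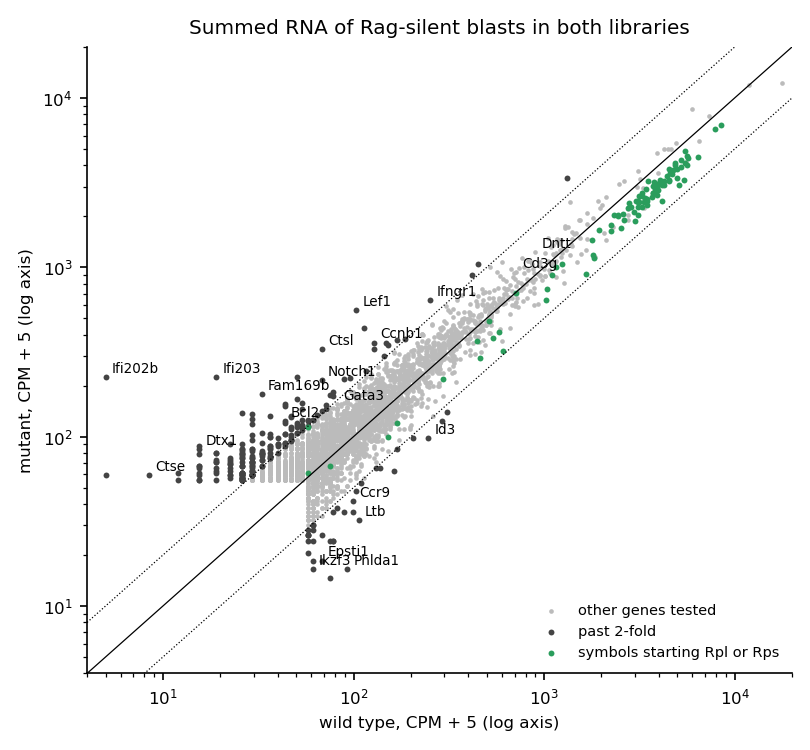
Summed RNA of Rag-silent blasts in wild type (horizontal) and mutant (vertical), as CPM with 5 added, on log axes; each point is a tested gene, the solid line marks equal levels and dotted lines 2-fold. Of 3048 genes, 192 lie past the upper dotted line and 35 past the lower one, and most green points, gene symbols that start with Rpl or Rps, lie below the solid line.

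Most marker lists of other cell types were low in Rag-silent blasts, while 3 lists were found in many of them. Neutrophil markers were at 0 in both libraries. Macrophage markers summed to 14.0 CPM in wild type, with 11 of 12 genes at 0, and to 19.4 CPM in mutant, with 8 of 12 at 0, and C1qa was at 0 in both. Markers of B and antigen-presenting cells summed to 28 and 73.5 CPM. Erythroid markers summed to 10.5 and 9.68 CPM and epithelial and stromal markers to 38.5 and 48.4 CPM. Markers of innate-like T and NK cells summed to 213 and 406 CPM, in 15 of 34 wild type and 36 of 52 mutant cells. In Rag-positive blasts that list summed to 201 CPM in wild type and 332 CPM in mutant. In Rag-silent blasts Gzma, a granzyme gene, gave most of the sum, at 210 CPM in 15 wild type and 354 CPM in 36 mutant cells. Gzma was singled out after its values were seen. Ccl5 had 25 UMIs in 1 mutant cell and 0 in the other Rag-silent blasts. Markers of single-positive T cells summed to 66.5 CPM in wild type and 221 CPM in mutant Rag-silent blasts, in 12 and 36 cells. There 5 of 10 and 1 of 10 genes were at 0. The list summed to 119 and 152 CPM in Rag-positive blasts. Klf2, which controls thymus exit, stood at 7.0 and 50.3 CPM in Rag-silent blasts. Among these, 1 mutant cell, the one called a doublet, held 31 UMIs of this list. Markers of plasmacytoid dendritic and plasma cells summed to 973 and 774 CPM, in 29 and 49 cells, mostly from Ly6d, at 773 and 627 CPM. Their sum was 870 and 1063 CPM in Rag-positive blasts. The list for regulatory T cells summed to 91.0 and 96.8 CPM in Rag-silent blasts, mainly from Ikzf2. The list for gamma delta T cells summed to 73.5 and 67.7 CPM there. The part of these markers in the differences between the libraries was not tested.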

How the data were processed

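Thymocytes (5000 cells loaded per sample) were profiled with the 10x Chromium 3′ v2 kit, per the labels. The authors deposited tables of raw UMI counts, 1 per library, with barcodes in rows and 27933 gene symbols in columns. The submitters' processing notes name Cell Ranger and mm10, with further versions not given in the sources used here. The wild type and mutant tables held 6638880 and 6364506 UMIs, with 1781 and 1416 UMIs in the smallest barcodes.

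UMIs were summed over each set of cells and divided by the total (CPM). CPM have exact Poisson intervals, ratios exact conditional intervals and shares exact Clopper-Pearson intervals, at 95%. A gene was tested with at least 50 CPM in 1 set and at least 20 UMIs in the sets compared. With 5 CPM added, a log2 ratio of at least 1 counted as past 2-fold. A fold against 0 UMIs used a floor of 3 UMIs.

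Genes were named by rank: the 12 highest and lowest log2 ratios between libraries, 8 against Rag-positive blasts and 6 against each other set by the smaller of both libraries' differences, some of the lists' extremes, and a set of stage genes. Ribosomal protein, mitochondrial, receptor segment, sex-linked, haemoglobin and unnamed genes, and genes with over 25% of at least 20 UMIs in 1 cell, were not ranked. The cells and the 29 gene and 10 marker lists were chosen with earlier results of these data known. Of the listed genes, Folr4, Ighm, Igkc, Tcrg-C1, Tcrg-C2, Tcrg-C4 and Trdc were not among the symbols.

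Doublets were scored with Scrublet in scanpy 1.11.5 and kept in the main values. Intervals and ratios came from scipy 1.17.1 and were run on simulated data. The simulated sums were Poisson draws without spread between cells, so they cannot show how the intervals hold under such spread. Positions are from GENCODE for mm10 and promoters from RefSeq. Alternatives changed the gate, the scaling of totals, the pseudocount, the filters and depth. Those on coreceptor UMIs, Cd4, mitosis, cells over 15000 UMIs, the mean CPM of both sets and the cycle limit of thinned cells were chosen after seeing the data. A few genes that the rule names are not reported here.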

Additional observations from a re-analysis of the deposited data

Results flagged for a closer look

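For 2 genes the difference between Rag-silent and Rag-positive blasts ran in opposite directions in the libraries, past 2-fold in each, and the difference between the libraries was not tested. With 5 CPM added, Arl3, which encodes a small GTPase of cilia, had a log2 ratio of Rag-silent over Rag-positive blasts of -1.32 in wild type and 1.19 in mutant. March2, which encodes a membrane-bound ubiquitin ligase, had -1.18 in wild type and 1.17 in mutant. Both genes had 6 UMIs in the wild type Rag-silent blasts, and 38 and 40 UMIs in the mutant ones. With each cell thinned to 3000 UMIs, Arl3 was found in 1 of 32 wild type Rag-silent and 23 of 168 Rag-positive blasts, and in mutant in 7 of 49 (5.94 to 27.2%) and 6 of 46 (4.94 to 26.3%), against 48.1% and 23.9% before thinning. The mutant side of the Arl3 pattern was thus not seen at equal totals. March2 was then found in 0 of 32 wild type Rag-silent blasts (up to 10.9%) and 28 of 168 Rag-positive blasts, and in mutant in 11 of 49 (11.8 to 36.6%) and 7 of 46 (6.34 to 28.9%), against 57.7% and 23.9% before thinning. When the gate was set on thinned cells, the log2 ratio between Rag-silent blasts, mutant over wild type, went from 1.81 to -0.78 for Arl3 and from 1.88 to 0.24 for March2.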

How the results depend on the processing

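No paired analysis was possible because each genotype has 1 library, and for the same reason no replicate could be left out. The cause of each value that moved was not tested unless given. The Rag-silent share of kept cells was 0.895% in wild type and 1.62% in mutant with at least 2 Ptcra UMIs, and 4.65% and 4% with the gate on thinned cells, where shallow cells leave the total. In mutant it was 4.38% among cells with at least 1000 genes and 1.68% with at least 3 coreceptor UMIs. It was 1.64% in wild type without cells with a Cd4 UMI, and 1.57% and 1.44% without the more mitotic cells. The Myc log2 ratio was 0.97 with thinned cells, with few UMIs left. Genes past 2-fold higher in mutant numbered 308 with at least 2 Ptcra UMIs, 289 without Cd4 cells, 124 with median of ratios, 102 with 20 CPM added, 103 with a mean of both sets of at least 50 CPM and 329 with a limit of 20 CPM. Genes past 2-fold lower numbered 56 with the thinned gate, 62 as a mean over cells, 102 without ribosomal protein and mitochondrial totals, 18 with 20 CPM added, 16 with that mean and 55 without Cd4 cells. Against Rag-positive blasts, where 0 genes passed in both libraries, higher genes numbered 1 with at least 2 Ptcra UMIs, doublets left out, at least 3 coreceptor UMIs or cells over 15000 UMIs left out. They numbered 2 as a mean over cells, without ribosomal protein totals, with thinned cells, without Cd4 cells or without mitotic cells, and 3 with a limit of 20 CPM. Lower genes numbered between 1 and 4 under alternatives: 4 with at least 2 Ptcra UMIs, 3 with thinned cells or a limit of 20 CPM, 2 with at least 5 cycle UMIs or without cells over 15000 UMIs, and 1 with the thinned gate, a mean over cells, other totals or no mitotic cells. Of 73 genes whose interval excluded 0, 7 turned direction under an alternative, and of the 48 among them with a log2 ratio of at least 1 in size, 24 fell short of that or turned. Of the 29 lists, 8 had such an interval for the median and 2 of these turned. The turns were Bst2 (0.40), Ccnb2 (-0.26) and Lztfl1 (0.016), Arl3 (-0.78) and Ly6d (0.43) with the thinned gate, Ly6d (0.14) without Cd4 cells, Tuba1c (-1.30) and Tubb4b (-0.41) without mitotic cells, the MYC network list (-0.054) without ribosomal protein totals, and the p53 target list, at -0.031 with median of ratios, -0.037 without ribosomal protein totals and -0.16 without Cd4 cells. Where the interval held 0, 36 of 46 genes, Hes1, Cdca3, Fzr1 and Nusap1 among them, and 14 of 21 lists, those of MYC-activated, histone and cytokine receptor genes among them, turned as well.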
